A study of Homo sapiens with 6 samples.

Results

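The 37 genes described here encode the machinery that imports proteins into mitochondria and that shapes the folds, or cristae, of the inner membrane. They were chosen by symbol from the subunits of the outer and inner membrane translocases, the sorting and assembly machinery, the import motor, the matrix chaperones and the cristae organizing system, and the rule uses no measured value. All 37 were found among the 60624 rows of the table and all 37 were among the 14778 genes tested. RNA was sequenced from A549, a human lung adenocarcinoma line, in 3 siCTR samples and 3 siCEP20 samples. The siCTR cells received a control small interfering RNA (siRNA) and the siCEP20 cells an siRNA against CEP20, a centrosomal protein, each for 3 days. Both groups are of 1 cell line, and the labels do not give the siRNA sequences. The labels do not say that the samples of a group were separate cultures, so p-values measure the spread between samples, which may be technical.

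Nearly all mitochondrial proteins are made in the cytosol and threaded through the outer membrane by the TOM complex. From there, precursors with a cleavable presequence pass the TIM23 translocase and are pulled into the matrix by the PAM motor, whereas carrier proteins are escorted by small TIM chaperones to TIM22, outer membrane barrels go to the SAM complex, and cysteine-rich proteins are trapped in the intermembrane space by an oxidative relay. In the matrix the presequence is removed and the chaperonin helps proteins to fold, and the MICOS complex holds cristae to the inner boundary membrane.

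Values are in TPM, an abundance unit that divides by transcript length, so levels of different genes can be set side by side. TPM keeps no read count and leaves the sequencing depth unknown, and 14429 to 14600 genes reached 1 TPM in the siCTR libraries and 14851 to 14987 in the siCEP20 libraries. Fold changes are siCEP20 against siCTR on the log2(TPM + 1) scale and understate the change of low genes. A gene was called higher or lower at an adjusted p-value under 0.05 (limma, Benjamini-Hochberg over all tested genes). CEP20 itself had 29.2, 30.5 and 35.1 TPM in the siCTR libraries and 16.2, 15.3 and 17.3 TPM in the siCEP20 libraries (log2 fold change -0.92, limma adjusted p = 0.00021), so the groups did not overlap for the knocked-down gene. In bulk RNA, fewer cells of a kind and less RNA per cell cannot be told apart. An exact permutation test of CEP20 gave p = 0.1, the smallest that 3 against 3 samples allow. Epithelial and A549 markers were present (7 of 7 at 1 TPM or more on average, summed level 6203 to 6362 TPM in siCTR and 7453 to 7801 TPM in siCEP20). Markers of fibroblasts (5.39 to 6.15 TPM in siCTR, 17.7 to 19.9 TPM in siCEP20, nearly all of it COL1A1, with COL1A2 and DCN at 0), endothelial cells (at most 0.144 TPM) and leukocytes (7.20 to 11.7 TPM, mostly CD14, with CD3E at 0) were low, and their part in the results was not tested. MTATP8P1, a nuclear pseudogene of the mitochondrial ATP8 gene, held 23886 TPM in siCTR replicate 1 and 51263 TPM in siCEP20 replicate 1 and was listed at 0 in the other 4 libraries.

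The import and cristae genes did not move as a block. Of the 37, 8 were higher and 11 were lower in siCEP20, and 18 did not pass the test. Among all tested genes 30.2% were higher and 13.2% were lower. The members' median log2 fold change was -0.13 beside 0.13 over all tested genes, with 14 members above 0 and 23 below. Past a fold change of 1.5, TOMM6 alone was higher, against 11.2% of all tested genes, and below 0.67, TOMM7, PAM16, DNAJC19 and TIMM17A were lower, against 4.61%. The siCEP20 values lay wholly above the siCTR values in 9 members and wholly below in 17, beside 38.4% and 17.0% of all tested genes. The summed level of the 37 genes was 4384 ± 46.1 TPM in siCTR and 4267 ± 129 TPM in siCEP20 (SD, n = 3 each). This was 97.3% of control, so that higher and lower members nearly offset each other in the total of TPM as deposited. Without TOMM6 the sums were 4369 ± 52.0 and 4170 ± 119 TPM, or 95.4% of control.

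The number of lower members depended on how the libraries were scaled. TPM was compared as deposited, and under median-of-ratios scaling the median of all tested genes went from 0.13 to 9.4e-05. Relative to that centre, 6 members were higher and 21 were lower, beside 20.1% and 21.6% of all tested genes, and the members' median was -0.28. Correcting each library for the length and GC content of transcripts gave 6 higher and 15 lower, beside 19.8% and 21.0%, with a median of -0.21. The 11 members lower without scaling were lower under each of these settings, and no called member changed direction. The median-of-ratios scaling divided libraries by factors of 0.906 to 0.984 in siCTR and 1.03 to 1.08 in siCEP20. Summed levels are given as deposited, and their share of control would be lower under that scaling.

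**Figure D1:**
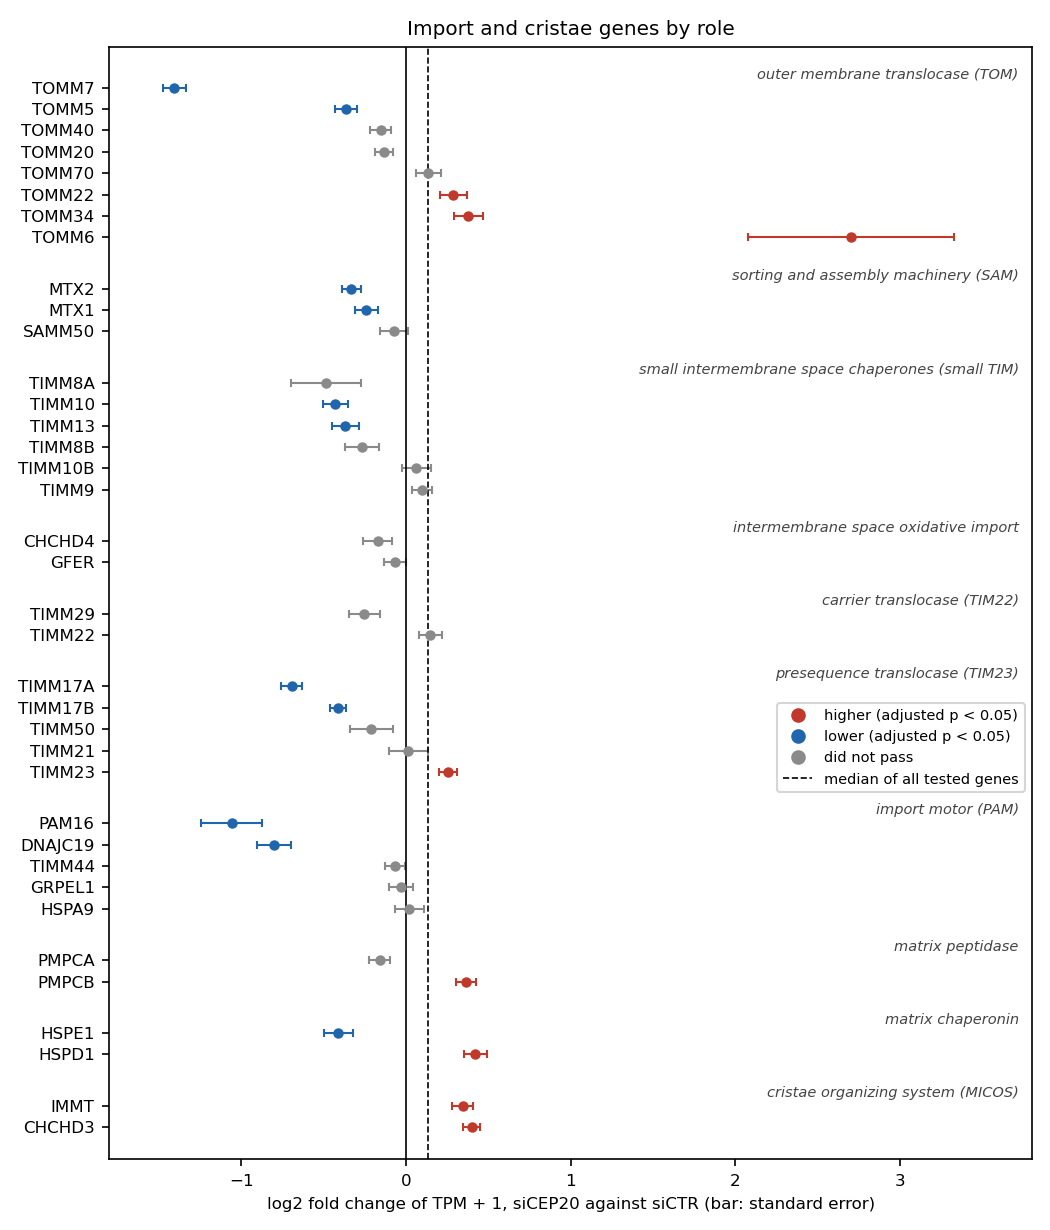
Log2 fold change of TPM + 1 (siCEP20 against siCTR) of the 37 genes, grouped by role, with the standard error as a bar; red points were higher, blue points lower and grey points did not pass at an adjusted p of 0.05. The dashed line is the median of all tested genes (0.13), and TOMM7 (-1.41) and TOMM6 (2.70) mark the ends of the range.

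The promoters of the genes on which the results below turn are shown first. RefSeq windows of 250 bases before and 50 bases after the gene start (GRCh38.p14) were matched by symbol for 34 of the 37 genes; TOMM5, TIMM8B and GRPEL1 had no entry in the table. HSPE1 and HSPD1 encode the co-chaperonin HSP10 and the chaperonin HSP60 and lie next to each other on opposite strands of chromosome 2. In the HSPE1 window (chr2:197500129-197500428, plus strand) the capitals run from the RefSeq start of HSPD1 at 197500274, on the minus strand, to the start of HSPE1 at 197500379, which lie 105 bases apart. RefSeq gives HSPD1 another start at 197499840, which lies 539 bases from that of HSPE1 and outside the window. TOMM7 is shown because it fell most of the 37 genes (chr7:22822800-22823099, minus strand), with the core of the NRF1 site, CGCATGCG, in capitals. IMMT is shown because it was higher and its window holds the ETS core CCGGAAG in 2 places (chr2:86195413-86195712, minus strand), printed in capitals as it reads on the other strand, CTTCCGG.
HSPE1: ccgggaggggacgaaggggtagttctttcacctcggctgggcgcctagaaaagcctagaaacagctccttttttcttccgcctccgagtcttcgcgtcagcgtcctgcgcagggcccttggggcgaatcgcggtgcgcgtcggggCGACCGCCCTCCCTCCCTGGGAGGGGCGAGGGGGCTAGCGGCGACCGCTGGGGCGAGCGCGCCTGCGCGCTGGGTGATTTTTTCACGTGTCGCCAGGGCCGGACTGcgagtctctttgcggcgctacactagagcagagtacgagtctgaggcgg
TOMM7: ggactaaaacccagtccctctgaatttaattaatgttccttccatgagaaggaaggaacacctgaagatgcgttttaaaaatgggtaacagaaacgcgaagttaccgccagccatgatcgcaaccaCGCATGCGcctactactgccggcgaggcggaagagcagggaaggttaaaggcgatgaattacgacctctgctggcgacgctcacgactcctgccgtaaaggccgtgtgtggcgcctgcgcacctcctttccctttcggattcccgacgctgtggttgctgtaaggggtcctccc
IMMT: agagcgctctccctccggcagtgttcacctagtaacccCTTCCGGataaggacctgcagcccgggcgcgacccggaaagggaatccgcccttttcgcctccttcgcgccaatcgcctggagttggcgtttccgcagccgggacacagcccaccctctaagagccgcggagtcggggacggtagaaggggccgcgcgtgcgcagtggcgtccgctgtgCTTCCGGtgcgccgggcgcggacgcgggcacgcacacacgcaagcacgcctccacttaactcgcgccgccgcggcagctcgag

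NRF1 and the ETS factor GABP are textbook regulators of nuclear genes for mitochondrial proteins, so both cores were sought on both strands. The ETS core CCGGAAG was in 13 of the 34 windows (38.2%), beside 12.2% of all 27305 genes with a window and 22.5% of the 10511 tested genes with one. Of these 13 genes, TOMM6, TOMM22, TOMM34, TIMM23, PMPCB and IMMT were called higher, TIMM10, TIMM13 and MTX2 were called lower, and TIMM10B, TIMM29, TOMM20 and TOMM70 did not pass. Over all tested genes, 30.2% were higher and 13.2% were lower. The higher calls of TOMM6, TOMM22, TIMM23 and PMPCB were each lost under some other setting of the fit. Whether the ETS core goes with the direction of change was not tested. The NRF1 core was in 3 windows, those of TOMM7, TIMM9 and CHCHD4 (8.82%, beside 2.46% of all genes with a window and 4.64% of tested genes with one), of which TOMM7 was called lower. A match says only that these letters stand in the window.

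Among the 8 TOM genes, 3 were higher, 2 were lower and 3 did not pass. TOMM7 (ENSG00000196683, chromosome 7, 22812628 to 22822849 of hg38, minus strand), a small subunit that tunes the stability of the complex and holds PINK1 at the outer membrane, had 217, 217 and 199 TPM in the siCTR libraries and 80.5, 83.6 and 73.0 TPM in the siCEP20 libraries. All siCEP20 values were far below all siCTR values, and replicates within a group lay close together. TOMM7 fell to 37.5% of control (log2 fold change -1.41 ± 0.07 SE, limma adjusted p = 2.2e-05), and this held after the length and GC correction (-1.31). TOMM5, another small subunit, had 224, 201 and 199 TPM in siCTR and 151, 165 and 167 TPM in siCEP20, without overlap (77.5% of control, limma adjusted p = 0.0033).

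The third small subunit went the other way. TOMM6 (ENSG00000214736, chromosome 6, 41787662 to 41789898, plus strand) had 10.1, 30.1 and 5.52 TPM in siCTR and 151, 105 and 37.4 TPM in siCEP20 (log2 fold change 2.70 ± 0.62 SE, limma adjusted p = 0.0093). The groups did not overlap, but the lowest siCEP20 library, replicate 3, stood near the highest siCTR library, replicate 2, and the standard error was the largest of the 37. TOMM6 shares 637 exonic bases on the same strand with the protein-coding gene ENSG00000124593, to which the deposited table assigned 35.0, 28.3 and 37.4 TPM in siCTR and 8.76, 19.9 and 35.3 TPM in siCEP20. The share of the pair's TPM assigned to each gene differed among libraries of one group. The sum of both genes was 45.1, 58.3 and 43.0 TPM in siCTR and 160, 125 and 72.7 TPM in siCEP20, which did not overlap, and its log2 fold change was 1.21 (limma adjusted p = 0.0062), less than the value for TOMM6 alone. With no filter on low genes the TOMM6 call was lost (adjusted p = 0.068).

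TOMM40, the barrel that forms the channel, had 276 ± 7.52 TPM in siCTR and 248 ± 19.1 TPM in siCEP20 (SD, n = 3 each) and did not pass (log2 fold change -0.15, limma adjusted p = 0.092). TOMM40 was called lower under median-of-ratios scaling (-0.30, adjusted p = 0.0098) and the length and GC correction (-0.21, adjusted p = 0.043). The receptor TOMM20 was at 118 ± 3.05 and 107 ± 3.05 TPM (-0.13, limma adjusted p = 0.079) and the receptor TOMM70 at 55.2 ± 3.37 and 60.8 ± 4.12 TPM (0.14, limma adjusted p = 0.18). TOMM20 was called lower under median-of-ratios scaling (-0.28, adjusted p = 0.0027), quantile normalization (-0.19, adjusted p = 0.014) and the length and GC correction (-0.31, adjusted p = 0.0019). TOMM22, the central receptor, had 34.4, 30.3 and 30.0 TPM in siCTR and 36.2, 40.3 and 39.8 TPM in siCEP20. TOMM22 was higher (log2 fold change 0.29 ± 0.08 SE, limma adjusted p = 0.021). The call was lost under median-of-ratios scaling (0.14, adjusted p = 0.24), quantile normalization (0.16, adjusted p = 0.17) and the length and GC correction (0.17, adjusted p = 0.14). It was also lost without siCTR replicate 2 or 3 or siCEP20 replicate 2 or 3 (0.26, 0.26, 0.26 and 0.27). TOMM34, a cytosolic partner of precursors, had 31.5, 34.7 and 37.5 TPM in siCTR and 42.2, 44.9 and 48.7 TPM in siCEP20, all above the controls (0.38 ± 0.09 SE, limma adjusted p = 0.0088; 0.23 under median-of-ratios scaling).

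In the SAM complex, which inserts barrel proteins into the outer membrane, both metaxins fell. MTX2 had 59.8, 62.3 and 62.3 TPM in siCTR and 47.9, 48.9 and 49.1 TPM in siCEP20 (79.1% of control, limma adjusted p = 0.0024). MTX1 had 67.6, 62.1 and 66.0 TPM in siCTR and 52.3, 53.7 and 59.3 TPM in siCEP20 (log2 fold change -0.24, limma adjusted p = 0.025). The groups of both genes were apart, but the MTX1 call was lost without siCTR replicate 1 or 3 or siCEP20 replicate 1 or 2, at adjusted p between 0.060 and 0.083, and narrowly missed with no filter or an untrended eBayes (0.051 and 0.050). Under median-of-ratios scaling MTX1 was at -0.39. SAMM50, the barrel at the core of the complex, overlapped between groups at 49.8 ± 2.65 and 47.4 ± 4.60 TPM (SD, n = 3 each; log2 fold change -0.07, limma adjusted p = 0.52).

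The 6 small TIM genes encode chaperones that carry hydrophobic precursors across the intermembrane space, and 2 of them fell. TIMM10 had 196, 162 and 178 TPM in siCTR and 126, 136 and 135 TPM in siCEP20 (log2 fold change -0.43 ± 0.08 SE, limma adjusted p = 0.0031). TIMM13 had 59.0, 52.6 and 54.5 TPM in siCTR and 42.8, 46.4 and 39.1 TPM in siCEP20 (-0.37 ± 0.08 SE, limma adjusted p = 0.0078). Neither gene overlapped between groups. Their partners in the hexamers did not pass: TIMM9, the partner of TIMM10, was at 101 ± 5.23 and 108 ± 3.90 TPM (SD, n = 3 each; log2 fold change 0.10, limma adjusted p = 0.22), and TIMM10B, which docks the chaperones to TIM22, at 32.3 ± 2.86 and 33.8 ± 2.37 TPM (0.06, limma adjusted p = 0.59).

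TIMM8A and TIMM8B are paralogs, and TIMM8A, which pairs with TIMM13, is the gene mutated in deafness-dystonia syndrome. TIMM8A had 13.5, 14.5 and 14.0 TPM in siCTR and 11.4, 12.7 and 6.29 TPM in siCEP20, the lowest value being that of replicate 3 (log2 fold change -0.48 ± 0.21 SE, limma adjusted p = 0.098). TIMM8B had 56.0, 48.5 and 44.3 TPM in siCTR and 45.6, 38.2 and 39.3 TPM in siCEP20, with overlap (-0.27, limma adjusted p = 0.070). Under median-of-ratios scaling both were called lower (-0.62 and -0.41, adjusted p = 0.048 and 0.035), and likewise under quantile normalization (-0.64 and -0.37, adjusted p = 0.045 and 0.048). The share of TIMM8A in the summed TPM of the pair was 22.2 ± 2.39% in siCTR and 19.6 ± 5.57% in siCEP20, a difference smaller than the spread (two-sided exact permutation p = 0.7), and without siCEP20 replicate 3 the difference changed sign to 0.28 percentage points.

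Of the 4 genes of the oxidative relay and TIM22, 0 passed in limma, and TIMM29 alone had an unadjusted p under 0.05. CHCHD4, the oxidoreductase that traps cysteine-rich proteins, was at 53.0 ± 4.22 TPM in siCTR and 47.1 ± 4.31 TPM in siCEP20 (log2 fold change -0.17, limma adjusted p = 0.15), and GFER, the oxidase that recharges it, at 33.0 ± 1.35 and 31.5 ± 0.217 TPM (-0.07, limma adjusted p = 0.45; SD, n = 3 each). The carrier channel TIMM22 was at 25.5 ± 1.51 and 28.4 ± 0.294 TPM (0.15, limma adjusted p = 0.13). Its partner TIMM29 was at 16.5 ± 0.599 and 13.7 ± 1.32 TPM (-0.25, limma adjusted p = 0.056). The GFER, TIMM22 and TIMM29 values did not overlap between groups, although none of these 3 genes passed the test across genes. Under median-of-ratios scaling CHCHD4, GFER and TIMM29 were called lower (log2 fold change -0.32, -0.21 and -0.39).

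In the TIM23 translocase the channel gene rose while both TIM17 genes fell. TIMM17A (ENSG00000134375, chromosome 1, 201955503 to 201970664, plus strand) had 125, 134 and 134 TPM in siCTR and 76.0, 81.6 and 84.7 TPM in siCEP20. These groups were far apart, and TIMM17A fell to 61.6% of control (log2 fold change -0.69 ± 0.06 SE, limma adjusted p = 0.00014). TIMM17B, its paralog, had 156, 157 and 155 TPM in siCTR and 115, 119.7 and 117 TPM in siCEP20, also apart (-0.41 ± 0.05 SE, limma adjusted p = 0.00046). The proteins of this pair occupy the same place in alternative forms of the translocase. TIMM17A made up 44.5%, 46.1% and 46.3% of the summed TPM of the pair in siCTR and 39.8%, 40.5% and 42.1% in siCEP20. Every siCEP20 share was lower, with a mean difference of -4.81 percentage points and the smallest p that the two-sided exact permutation test can give here, 0.1.

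TIMM23 had 135, 138 and 147 TPM in siCTR and 169, 169 and 164 TPM in siCEP20, all above the controls (log2 fold change 0.25 ± 0.05 SE, limma adjusted p = 0.0069). The call was lost under median-of-ratios scaling (0.10, adjusted p = 0.11). TIMM23 has a near-identical copy, TIMM23B (15.3 to 16.1 TPM in siCTR, 18.4 to 20.1 TPM in siCEP20, limma adjusted p = 0.014), and how reads were divided between the copies was not tested. TIMM50, the presequence receptor, was at 125 ± 19.2 and 107 ± 14.5 TPM (SD, n = 3 each; -0.21, limma adjusted p = 0.23), and TIMM21, which links the translocase to the respiratory chain, at 14.5 ± 1.96 and 14.6 ± 1.5 TPM (0.01, limma adjusted p = 0.94), both with overlapping groups. TIMM17B overlaps PQBP1 on the opposite strand by 402 exonic bases, and PQBP1 had a log2 fold change of -0.42 (limma adjusted p = 0.0090). The paper's methods describe libraries from which a U-labelled second strand was removed, and an alignment at default settings. Whether the quantification used strand is not given in the sources used here, so how reads of such pairs were divided cannot be told.

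Of the 5 import motor genes, PAM16 and DNAJC19 were lower and 3 did not pass. PAM16 (ENSG00000217930, chromosome 16, 4331549 to 4355607, minus strand), a J-like protein that tethers the activating J-protein to the translocase, had 85.8, 102 and 110.2 TPM in siCTR and 54.8, 55.9 and 33.7 TPM in siCEP20. The groups did not overlap, siCEP20 replicate 3 was the lowest, and PAM16 fell to 48.5% of control (log2 fold change -1.06 ± 0.19 SE, limma adjusted p = 0.0027). The readthrough gene CORO7-PAM16, which shares 522 exonic bases with it, held 8.23 TPM in siCTR replicate 1 and 8.89 TPM in siCEP20 replicate 3 and at most 0.628 TPM elsewhere. The sum of both gave -0.99 (limma adjusted p = 0.00037).

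DNAJC19 (ENSG00000205981, chromosome 3, 180983697 to 180989774, minus strand), a J-protein of the inner membrane whose loss causes a cardiomyopathy with ataxia, had 27.0, 21.2 and 21.7 TPM in siCTR and 12.6, 13.4 and 12.6 TPM in siCEP20. The siCEP20 libraries were nearly alike and all below the controls, at 55.3% of the control mean (log2 fold change -0.80 ± 0.10 SE, limma adjusted p = 0.00066). The other motor genes overlapped between groups. HSPA9, the mitochondrial HSP70 that does the pulling, had 429, 449 and 436 TPM in siCTR and 401, 425 and 514 TPM in siCEP20 (0.02, limma adjusted p = 0.87). TIMM44, its anchor, was at 62.0 ± 2.86 and 59.2 ± 1.64 TPM and GRPEL1, its nucleotide exchange factor, at 41.8 ± 2.66 and 40.9 ± 2.08 TPM (SD, n = 3 each; -0.07 and -0.03, limma adjusted p = 0.42 and 0.77). Both were called lower under median-of-ratios scaling (-0.22 and -0.18, adjusted p = 0.038 and 0.031), and GRPEL1 also after the length and GC correction (-0.19, adjusted p = 0.028).

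**Figure D2:**
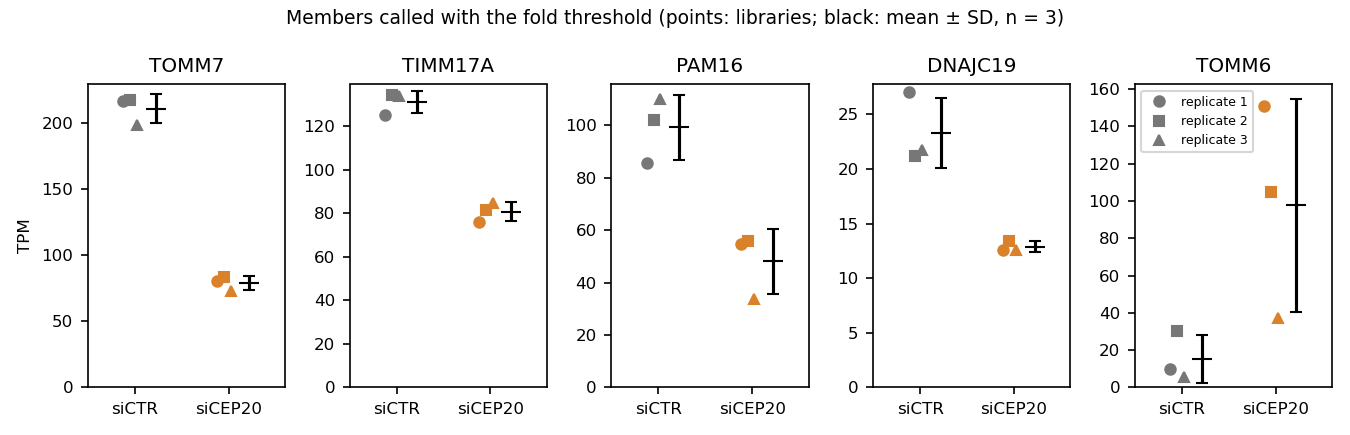
TPM of the 5 members called with a fold change over 1.5 or under 0.67, in siCTR (grey) and siCEP20 (orange), 1 panel a gene, with a marker shape for each replicate number and the mean ± SD in black (n = 3). TOMM7, TIMM17A, PAM16 and DNAJC19 lie lower in every siCEP20 library, and TOMM6 spreads from 37.4 to 151 TPM in siCEP20.

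The matrix peptidase cuts off presequences. PMPCB, the catalytic subunit, had 52.2, 51.3 and 51.8 TPM in siCTR and 71.0, 64.8 and 65.4 TPM in siCEP20, without overlap (log2 fold change 0.37 ± 0.06 SE, limma adjusted p = 0.0021). Its non-catalytic partner PMPCA was at 77.1 ± 1.5 and 69.0 ± 3.63 TPM (SD, n = 3 each; -0.16, limma adjusted p = 0.065), also without overlap and on the other side. PMPCA was called lower under median-of-ratios scaling (-0.31, adjusted p = 0.0033), quantile normalization (-0.24, adjusted p = 0.0079) and the length and GC correction (-0.24, adjusted p = 0.010). The PMPCB call was lost after the length and GC correction (0.17, adjusted p = 0.10) and kept under median-of-ratios scaling at 0.22. PMPCB shares 1400 exonic bases with DNAJC2 on the opposite strand, which was higher (log2 fold change 0.50, limma adjusted p = 0.0013), and 112 exonic bases with PSMC2 on its own strand, which was lower (-0.24, limma adjusted p = 0.016). The sum of PMPCB and PSMC2 was 122 ± 3.56 TPM in siCTR and 126 ± 2.06 TPM in siCEP20 (SD, n = 3 each), with overlapping groups and a log2 difference of 0.05 (two-sided exact permutation p = 0.2). Each gene enters this sum in full, and they were called in opposite directions. The sum therefore does not tell how reads of the shared bases were divided.

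The genes of the matrix chaperonin moved in opposite directions. HSPD1 (ENSG00000144381), which encodes the HSP60 barrel and was the most abundant of the 37 in both groups, had 512, 573 and 555 TPM in siCTR and 723, 792 and 685 TPM in siCEP20 (log2 fold change 0.42 ± 0.07 SE, limma adjusted p = 0.0018). HSPE1 (ENSG00000115541), which encodes the HSP10 lid, had 373, 335 and 420.1 TPM in siCTR and 277, 305 and 264 TPM in siCEP20 (-0.41 ± 0.09 SE, limma adjusted p = 0.0071). Neither gene overlapped between groups, and under median-of-ratios scaling HSPD1 was still higher at 0.27. The ratio of HSPD1 to HSPE1 TPM was 1.37, 1.71 and 1.32 in siCTR and 2.60, 2.60 and 2.59 in siCEP20. The mean log2 ratio was 0.83 higher in siCEP20, with the smallest p that the two-sided exact permutation test can give here, 0.1.

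HSPE1 also shares 192 exonic bases with the readthrough gene HSPE1-MOB4, which held 33.2 TPM in siCTR replicate 2 and was listed at 0 in the other 5 libraries. With both summed, the difference in log2 ratio was 0.88. The log2 fold change of the sum was -0.46 (limma adjusted p = 0.0018), beside -0.41 for HSPE1 alone. The annotation has HSPD1 and HSPE1 overlap by 135 exonic bases on opposite strands. The canonical transcripts are 2245 bases for HSPD1 and 557 bases for HSPE1, and after the length and GC correction the log2 fold changes were 0.30 and -0.38. HSPD1 and HSPE1 have many processed pseudogenes, and how reads were divided among them was not tested.

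**Figure D3:**
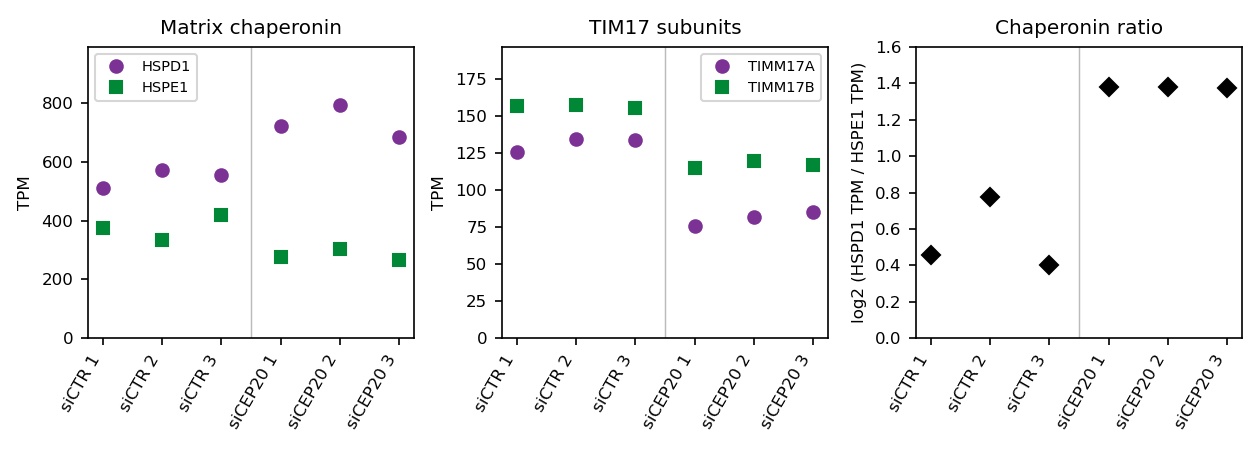
TPM of HSPD1 and HSPE1 (left), TPM of TIMM17A and TIMM17B (middle) and the log2 ratio of HSPD1 to HSPE1 TPM (right) in each of the 6 libraries. HSPD1 lies higher and HSPE1 lower in every siCEP20 library, both TIM17 genes lie lower, and the ratio goes from between 0.40 and 0.77 to between 1.37 and 1.38.

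Both MICOS members were higher. IMMT, or mitofilin, the core scaffold of the complex, had 144, 150.5 and 166 TPM in siCTR and 189, 196 and 199 TPM in siCEP20 (log2 fold change 0.34 ± 0.06 SE, limma adjusted p = 0.0034). CHCHD3, or MIC19, which binds it from the intermembrane space and ties it to SAMM50, had 252, 270.5 and 271 TPM in siCTR and 337, 352 and 357 TPM in siCEP20 (0.40 ± 0.05 SE, limma adjusted p = 0.00072). Every siCEP20 value of both lay above the controls, and under median-of-ratios scaling both stayed called at 0.19 and 0.25. The summed TPM of both, without scaling, was 130% of control, the highest share of the 10 role groups. This share was 85.4% for the small TIM genes, 85.6% for SAM, 85.9% for TIM23 and 88.4% for TOM. The TOM sum includes TOMM6, at 15.2 TPM in siCTR and 97.7 TPM in siCEP20 on average. Without it the TOM share would be lower.

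The rest of MICOS was read from the list of other pathway genes, and its members were named to complete the complex after their values were seen. MICOS13 had 64.6, 68.7 and 62.4 TPM in siCTR and 34.9, 31.4 and 33.9 TPM in siCEP20 (log2 fold change -0.94, limma adjusted p = 6.6e-05). MICOS10, another small membrane subunit, had 66.4, 55.1 and 49.5 TPM in siCTR and 20.6, 27.2 and 27.3 TPM in siCEP20 (-1.16, limma adjusted p = 0.00044). CHCHD6 was also lower (-0.29, limma adjusted p = 0.019), APOOL and the associated DNAJC11 were higher (0.38 and 0.28, limma adjusted p = 0.022 and 0.0065), and APOO did not pass (-0.10, limma adjusted p = 0.27). The 2 members were thus on the higher side of a complex whose other genes were on both sides without scaling. Under median-of-ratios scaling the APOOL and DNAJC11 calls were lost (0.25 and 0.14, adjusted p = 0.082 and 0.070). APOO was then called lower (-0.24, adjusted p = 0.023), as were MICOS10, MICOS13 and CHCHD6.

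Over all 55 other genes of the pathway, 52 were tested, 13 were higher, 16 were lower and 23 did not pass. Their median log2 fold change was 0.00. Among all tested genes, 30.2% were higher and 13.2% were lower, with a median of 0.13. The 12 tested genes of other import subunits had 3 higher and 4 lower, the 15 of cristae and membrane shape 4 and 6, the 15 of peptidases and chaperones 4 and 4, and the 10 of transcription regulators 2 and 2. The 3 higher genes with the smallest adjusted p were OXA1L, which inserts proteins into the inner membrane from the matrix (log2 fold change 0.56, limma adjusted p = 0.00052), the matrix protease CLPP (0.48, limma adjusted p = 0.00090) and OMA1, the stress protease that cleaves OPA1 (0.63, limma adjusted p = 0.0011). The 3 lower ones were CHCHD2, which had 817, 771 and 745 TPM in siCTR and 459, 469.9 and 427 TPM in siCEP20 (-0.78, limma adjusted p = 6.4e-05), MICOS13, and TIMMDC1, a complex I assembly factor related to TIM17 (-0.87, limma adjusted p = 0.00012). Among the regulators, NRF1 was at 13.2, 16.0 and 13.7 TPM in siCTR and 13.7, 14.7 and 14.1 TPM in siCEP20 (-0.01, limma adjusted p = 0.93), and GABPA, the DNA-binding subunit of GABP, did not pass (0.29, limma adjusted p = 0.063). GABPB1 did not pass either (-0.24, limma adjusted p = 0.11), but was called lower under median-of-ratios scaling (-0.38, adjusted p = 0.020). The regulators called were ESRRA and ATF5, lower (-0.61 and -0.47, limma adjusted p = 0.0017 and 0.021), and PPRC1 and HCFC1, higher (0.59 and 0.47, limma adjusted p = 0.0038 and 0.0018).

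Transcript length ran along with the direction of change. Across the 37 genes, Spearman's correlation between canonical transcript length and log2 fold change was 0.53, and 0.63 without TOMM6. Over 14737 tested genes it was 0.25, and the genes share the same 6 libraries and are not independent replicates. Of the 8 members under 1000 bases, 6 were lower (TOMM5, TOMM7, TIMM10, TIMM17B, PAM16 and HSPE1), TOMM6 was higher and TIMM8B did not pass, with a median of -0.41. All tested genes of that length had a median of -0.07, and 26.0% of them were lower and 12.9% higher. The 15 members of 1000 to 2000 bases had 3 higher and 5 lower (median -0.17). All tested genes of that length had a median of 0.04, with 20.3% lower and 22.4% higher. The 14 longer members had 4 higher and 0 lower in limma, although TOMM20 and PMPCA were lower at an unadjusted p under 0.05. Under median-of-ratios scaling 4 of them, TOMM20, GFER, GRPEL1 and PMPCA, were called lower, and TOMM20, GRPEL1 and PMPCA also after the length and GC correction. The members' medians were 0.06 from 2000 to 3000 bases and 0.02 from 3000 bases up, beside 0.12 and 0.22 for all tested genes, of which 12.6% and 6.45% were lower and 30.3% and 38.8% higher.

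The length and GC correction brought the correlation over all tested genes to 0.014 and that over the members to 0.37. After it the members' medians were -0.34 under 1000 bases, -0.22 from 1000 to 2000 bases, -0.10 from 2000 to 3000 bases and -0.15 from 3000 bases up. The part of transcript length in the members' calls was not tested beyond this. For GC content the correlation over the members was -0.11, beside -0.10 over all tested genes.

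**Figure D4:**
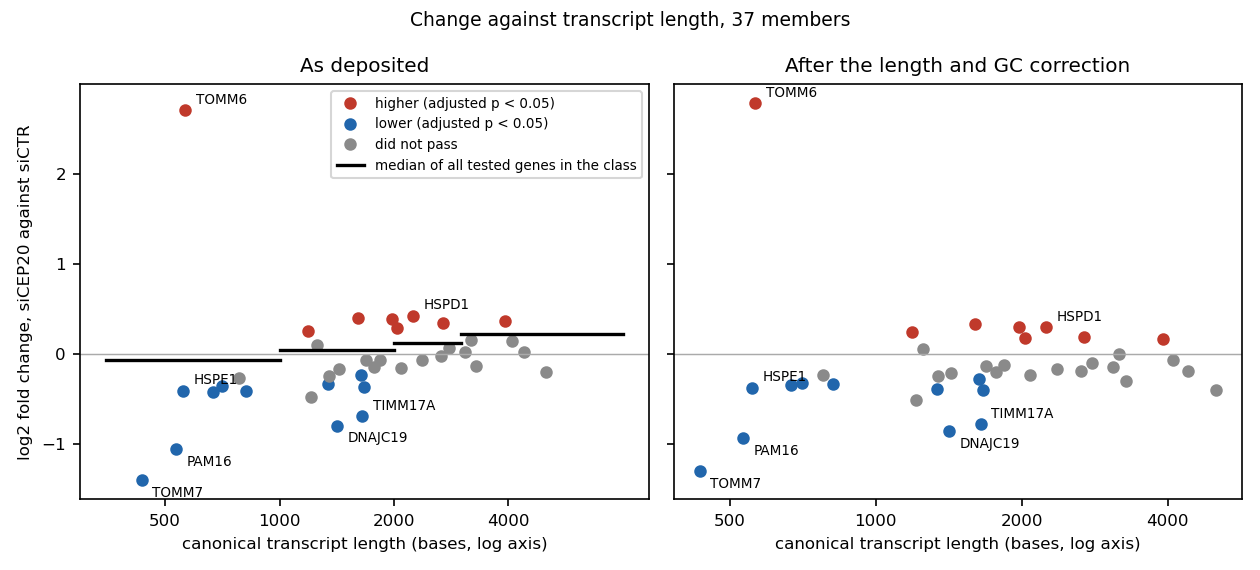
Log2 fold change (siCEP20 against siCTR) of the 37 genes against canonical transcript length on a log axis, as deposited (left) and after the length and GC correction (right), coloured by the call on the deposited values; black lines are medians of all tested genes in 4 length classes. The lower members gather at short lengths and remain below 0 after the correction. All 8 members under 1000 bases, TOMM6 and TIMM8B included, had a median of -0.41 as deposited.

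Genes that start close to a member on the other strand were followed for 9 members. SDHD, a subunit of complex II whose start lies 26 bases from that of TIMM8B, was lower (log2 fold change -0.26, limma adjusted p = 0.016) beside -0.27 for TIMM8B. TMEM43, 145 bases from CHCHD4, was higher (0.29, limma adjusted p = 0.0059) beside -0.17 for CHCHD4. ARFIP2, 22 bases from TIMM10B (-0.15, limma adjusted p = 0.059), and ENTR1, 16 bases from PMPCA (-0.06, limma adjusted p = 0.64), did not pass. KIAA0586 beside TIMM9 and FBXO15 beside TIMM21 were higher (0.39 and 0.81, limma adjusted p = 0.027 and 0.013), whereas YIPF2 beside TIMM29, LNP1 beside TOMM70 and THBS3 beside MTX1 did not pass (0.19, 0.10 and -0.06, limma adjusted p = 0.19, 0.66 and 0.71). None of the 9 members next to these genes was called higher, and MTX1 alone was called lower, beside 30.2% and 13.2% of all tested genes. The search used GENCODE gene starts and did not list HSPD1 and HSPE1, although RefSeq starts of the pair lie 105 bases apart. Of that pair, HSPD1 was called higher and HSPE1 lower.

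In all, 17 of the 37 members overlap another tested gene. MIR3654, listed at 302 to 401 TPM in siCTR and 182 to 188 TPM in siCEP20, lies inside CHCHD3 and shares no exonic base with it. ABR overlaps TIMM22 by 153 exonic bases on the opposite strand and was higher (log2 fold change 0.50, limma adjusted p = 0.0011). Of the 20 members that overlap no tested gene, 2 were higher and 6 were lower, beside 30.2% and 13.2% of all tested genes. The 2 higher ones were TOMM22 and TIMM23, and both calls were lost under median-of-ratios scaling (adjusted p = 0.24 and 0.11).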

How the data were processed

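RNA-seq of A549 cells in 3 siCTR and 3 siCEP20 samples was used. Per the labels' processing notes and the paper's methods, the authors trimmed reads with fastp 0.20.1, aligned them to hg38 with HISAT2 2.1.0 and quantified genes with StringTie 2.0, and they deposited TPM for 60624 Ensembl genes. The annotation release is not given in the sources used here. The authors used DESeq2, which needs counts, whereas TPM needs another test. TPM keeps no depth, so no counting interval was computed and the precision rests on 3 replicates a group. All sample columns were used, and 0 were left out.

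Genes averaging 1 TPM or more over the 6 libraries (14778) were kept. Their log2(TPM + 1) values were fitted in limma 3.58.1 (R 4.3.3), using lmFit and a trended eBayes and no replicate block, and p-values were adjusted over all of them by Benjamini-Hochberg. Single ratios and shares were compared by exact permutation tests in Python 3.11.15 with scipy 1.17.1, numpy 2.4.6 and pandas 2.3.3, and plots were drawn with matplotlib 3.10.9. Positions, canonical transcript length and GC content came from GENCODE release 44 (hg38), which held 60370 of the rows. Length and GC content were known for 99.7% of tested genes, and the correction subtracted a loess curve (span 0.5) in each library. Promoter windows came from RefSeq (GRCh38.p14). The steps were tested on simulated data.

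The members are defined by symbol alone, but they, the lists and the rule for named genes were chosen with earlier results of these data known. The rule named CEP20, every member, the 3 higher and 3 lower other pathway genes with the smallest adjusted p, genes starting within 1000 bases of a member on the opposite strand, and tested genes overlapping a member. Protein sequences were not used here. As alternatives, the pseudocount was set to 0.1, the filter was dropped or raised to 5 TPM, and libraries were scaled by median of ratios or by quantiles. Others were an untrended eBayes, a replicate block, the length and GC correction, a fit of protein-coding genes, rows of one symbol summed, overlapping members left out, a fold threshold and each library left out.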

Additional observations from a re-analysis of the deposited data

How the results depend on the processing

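Without a change of fit, the 8 higher members went to 2 when members overlapping another tested gene were left out and to 1 with the fold threshold, and the 11 lower members to 6 and 4, since fewer genes can be called under both. The lower members went to 21 under median-of-ratios scaling and to 17 under quantile normalization. The share of all tested genes called lower also rose, from 13.2% without scaling to 21.6% under median-of-ratios scaling. For quantile normalization that share is not given here. Other pathway genes went from 13 higher to 8 under median-of-ratios scaling, 7 under the length and GC correction and 2 with the fold threshold, and from 16 lower to 6 without overlapping genes and 8 with the fold threshold. The members' median of -0.13 became -0.28 under median-of-ratios scaling, -0.19 under quantile normalization and -0.21 under the length and GC correction. Where no construction is named, the cause was not tested.

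With 1 library left out, the members had 7 to 8 higher and 10 to 12 lower genes, their median lay between -0.15 and -0.090 (the latter without siCEP20 replicate 3), other pathway genes had 10 to 13 higher and 13 to 16 lower, and CEP20 lay between -0.97 and -0.84. The difference in the TIMM17A share lay between -5.46 and -4.32 points and that in the log2 ratio of HSPD1 to HSPE1 between 0.76 and 0.95. The difference in the TIMM8A share lay between -5.28 and 0.28 points, the latter without siCEP20 replicate 3.

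Of 731 alternative values for 43 named genes, 671 kept their direction and side of the threshold, 28 came to pass it, 16 no longer passed it, and 16 changed sign. Calls were lost for TOMM22 (7 settings), MTX1 (6), TOMM6 (1, without a filter), TIMM23 (1) and PMPCB (1), and the other 14 called members kept theirs in all settings run. No called gene changed sign. Of those not called, the median-of-ratios values were -0.012 for TOMM70, -0.050 for TIMM9, -0.083 for TIMM10B, -0.13 for TIMM21 and -0.13 for HSPA9. The quantile values were -0.064 for TIMM10B and -0.14 for TIMM21. The length and GC values were -0.066 for TOMM70, -0.10 for TIMM10B, -0.0092 for TIMM22, -0.15 for TIMM21 and -0.19 for HSPA9. With 1 library left out, TIMM21 lay between -0.092 and 0.088, GRPEL1 between -0.082 and 0.0022 and HSPA9 between -0.085 and 0.094.

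The deviations of same-numbered samples from their group means correlated at 0.157, -0.061 and -0.062. Those of differently numbered samples correlated at -0.121 to 0.170. These values do not settle whether the replicate numbers of the labels pair the samples. With the replicate number as a block, 8 members were higher and 13 lower, with TIMM8B and TIMM50 added (adjusted p = 0.023 and 0.034). Summing TOMM5, TOMM6, TIMM10B, PAM16 and HSPE1 each with the genes that share their exons, an alternative added after seeing the data, gave 8 higher and 11 lower. PMPCB and SAMM50, which share exonic bases with PSMC2 and PNPLA3 on their own strand, were not summed in that fit. The sum of PMPCB and PSMC2 had a log2 difference of 0.05, with overlapping groups, which does not tell how their shared reads were divided.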
